A study of Mus musculus with 25 samples.

Results

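The nuclear genes for the subunits of oxidative phosphorylation were followed in a 3′-end messenger RNA sequencing study of 5XFAD mice, a transgenic model in which human genes with familial Alzheimer's disease mutations are driven in neurons by the Thy1 promoter. The members were all rows of the count tables whose symbols begin as those of the respiratory complexes do (Ndufa, Ndufb, Ndufc, Ndufs or Ndufv with a number, Sdha to Sdhd, Uqcr, Cox4 to Cox8, and Atp5), which gave 84 of 19762 genes. By symbol, 37 belonged to complex I, 4 to complex II, 8 to complex III, 18 to complex IV and 17 to complex V. The set was therefore chosen by name and not by any measured value.

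Whole choroid plexus, the tissue in the ventricles that makes cerebrospinal fluid, was taken from 5XFAD mice given an antibody to the checkpoint receptor PD-1 (5 libraries), a control IgG (5) or no treatment (4). The titles of these libraries carry a letter, with 2 M and 3 F among the anti-PD-1 libraries, 2 M and 3 F among the IgG libraries and 3 M and 1 F among the untreated libraries. Brain myeloid cells were sorted on CD11b from 5XFAD mice that all received anti-PD-1, with no untreated or IgG group, and fell into a CD45high gate (3 libraries titled D7 and 2 titled D14) and a CD45low gate (3 libraries for each of D7 and D14). What D7 and D14 stand for is not stated in the labels, nor whether each library came from its own animal, so p-values reflect library-to-library spread that may be technical. All mice were perfused with saline, and ages are not given in the labels.

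Oxidative phosphorylation takes place in the inner mitochondrial membrane. Complexes I and II pass electrons from NADH and succinate to ubiquinone, complex III hands them to cytochrome c, and complex IV gives them to oxygen, while complexes I, III and IV pump protons that drive ATP synthesis by complex V. Most subunits are encoded in the nucleus and a few in mitochondrial DNA. Circulating and inflammatory myeloid cells are known to rely heavily on glycolysis, and the choroid plexus epithelium is known to be rich in mitochondria.

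Not every matched row is a structural subunit. Atp5s and Atp5sl encode proteins related to a coupling factor, Cox7a2l encodes a factor that joins complexes III and IV, and Ndufa4l2 is a low-oxygen-induced relative of Ndufa4. Ndufa4 itself, named for complex I, is known as a component of complex IV. It is counted under complex I here, by symbol.

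Choroid plexus libraries held 931461 to 1840072 counts and sorted libraries 343439 to 974777. The authors also deposited a scaled table, from which whole reads could be recovered, 479616 to 1252215 per sorted library. Marker genes were checked against the labels: transcripts of choroid plexus epithelium summed to 153969 to 233754 CPM (counts scaled to a common library total, with TMM factors) in the choroid plexus, and microglial transcripts to 1029 to 5014 CPM in CD45high libraries against 9550 to 14117 CPM in CD45low libraries. In CD45high libraries the 10 neutrophil genes summed to more, 21070 to 40408 CPM in recovered reads, than the 9 monocyte genes, 5616 to 6746 CPM.

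Promoter sequences were examined as a feature that the naming rule did not use. Nuclear respiratory factor 1 (NRF1) is a transcription factor known to bind promoters of respiratory chain genes. In windows of 300 bases (250 before and 50 after the start, RefSeq on GRCm38.p6), the NRF1 consensus, with any base at its sixth place, was searched on both strands and found in 17 of the 69 members with a promoter entry, which is 24.6%. The same consensus was in 12.4% of the 8172 genes with an entry that were tested in the sorted cells and in 5.19% of all 27025 entries. The 4 stretches that follow are shown for members of complexes V, IV, I and II, with the match in capitals. They lie at chr11:115420026-115420085 for Atp5h, chr5:115349086-115349145 for Cox6a1, chr4:123718250-123718309 for Ndufs5 and chr13:74350304-74350363 for Sdha, all 60 bases long, on the minus strand and upstream of the transcription start.
Atp5h: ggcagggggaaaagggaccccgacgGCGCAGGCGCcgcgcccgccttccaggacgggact
Cox6a1: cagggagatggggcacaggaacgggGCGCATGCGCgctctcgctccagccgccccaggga
Ndufs5: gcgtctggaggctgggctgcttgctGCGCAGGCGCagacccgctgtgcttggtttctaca
Sdha: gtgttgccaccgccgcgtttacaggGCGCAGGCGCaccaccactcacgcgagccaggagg

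A match of letters is a description of the sequence and not a binding site. Atp5h, Cox6a1 and Ndufs5 were later called higher in the CD45high gate and Sdha was not, in recovered reads. Of the tested members with the consensus, 15 of 17 were called higher there, with a median log2 fold change of 0.83. Of those without, 36 of 49 were called, with a median of 0.93, and of all genes tested in those reads 28% were. The letters CCGGAAG, bound by ETS factors, were in 23.2% of member promoters against 21.8% of genes tested in the sorted cells, and the YY1 element of such promoters in 7.25% against 2.04%.

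The share of a member's reads that reached the count table differed greatly between members in the sorted cells, and this bears on every level that follows. Among members with at least 100 recovered reads over the 11 sorted libraries, the count table held a median of 20.0% of the reads (n = 77), against 92.8% for all genes (n = 9331). It held under 10% for 28 members, or 36.4%, against 5.27% of all genes. Ndufa13, an accessory subunit of complex I, had 0 counts against 3057 reads, and Ndufb7, another, had 1 count against 2106 reads. Atp5h, of the peripheral stalk of ATP synthase, had 6 counts against 1575 reads, and Cox4i1, the first nuclear subunit of complex IV, had 410 counts against 5664 reads. At the other end, the membrane anchors of complex II were nearly complete, with 1534 counts against 1540 reads for Sdhc and 1169 against 1175 for Sdhd.

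By complex, the median share kept was 6.74% for complex I, 96.2% for complex II, 39.8% for complex III, 29.0% for complex IV and 30.6% for complex V. The share went with the length of the 3′ untranslated region, with a Spearman correlation of 0.67 across the 77 members and 0.39 across 9268 genes. These are correlations across genes of the same libraries. The members' 3′ untranslated regions are short, with a median of 158 bases against 958.5 for all genes. Members with fewer than 100 bases kept a median of 1.69% of reads (21 members), and all genes of that length kept 4.06% (464 genes). Length did not bring the members level with other genes in the longer classes: from 200 to 500 bases, 20 members kept 34.3% and 1740 genes kept 84.7%. The step that made the difference is not named in the labels or notes.

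**Figure D1:**
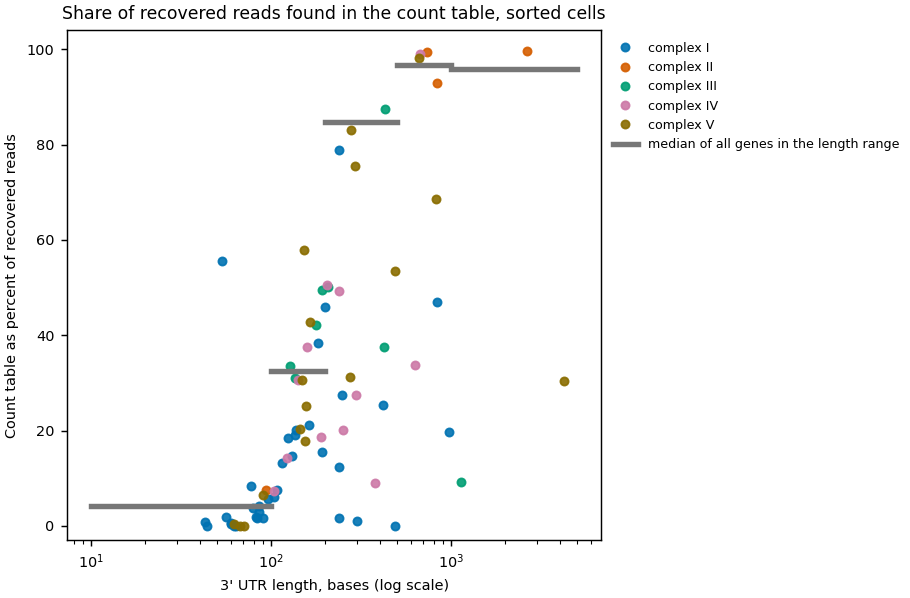
Counts in the count table as a percentage of the reads recovered from the scaled table in the sorted cells, against 3′ untranslated region length in bases on a log axis. Each point is a member gene, coloured by complex, and grey bars mark the median of all genes in a range of lengths; most members lie below the grey bar of their range, and complex I has the lowest median at 6.74%.

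In the choroid plexus both deposited tables held equal values for 99.8% of genes, so no fuller value could be recovered there. Across the 77 members, choroid plexus counts followed sorted-cell counts (Spearman correlation 0.92) more closely than sorted-cell reads (0.43). Some members at or near 0 in the sorted count table were also low in the choroid plexus: Ndufa13 had 0 to 8 counts per library and Ndufb4, an accessory subunit, had 0 to 3. The level of a choroid plexus member relative to another member is therefore uncertain, and whether the share kept was equal between the choroid plexus groups could not be tested. In the sorted cells it was not equal between libraries: the members together kept 25.7% to 28.3% of their reads in CD45high libraries and 27.8% to 35.5% in CD45low libraries. All genes together differed in the same direction. Their recovered reads were 1.39 to 1.45 times their counts in CD45high libraries and 1.26 to 1.36 times in CD45low libraries. For Atp5e, the epsilon subunit of ATP synthase, the counts were 32 of 133, 47 of 114 and 75 of 187 reads in CD45low D14 libraries, against 25 of 123, 30 of 137 and 24 of 139 in CD45low D7 libraries. Results in the sorted cells are given for both sources, or for recovered reads or counts alone.

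In the choroid plexus the members summed to 13774 ± 1250 CPM in anti-PD-1 libraries (SD, n = 5), 13015 ± 418 CPM in IgG libraries (n = 5) and 13543 ± 638 CPM in untreated libraries (n = 4), or 1.22% to 1.51% of each library's counts. Complex V made the largest part of these counts in each group, with 5287 ± 328 CPM in anti-PD-1, 5053 ± 269 in IgG and 5333 ± 373 in untreated libraries. Complex IV had 2656 ± 463 CPM in anti-PD-1, 2374 ± 123 in IgG and 2500 ± 134 in untreated libraries. Its wide spread under anti-PD-1 came with 1 library at 3431 CPM, in which Cox6a1 was at 1544 CPM. Complex III had 2482 ± 260 CPM in anti-PD-1, 2286 ± 164 in IgG and 2350 ± 160 in untreated libraries, and complex I 1947 ± 273 in anti-PD-1, 1915 ± 95.4 in IgG and 1870 ± 84.3 in untreated libraries. Complex II, with its 4 genes, had 1402 ± 138 CPM in anti-PD-1, 1387 ± 67.4 in IgG and 1490 ± 85.5 in untreated libraries. The ranges of the 3 groups overlapped for every complex. The CPM of 3′-end libraries were not divided by transcript length, and the order of complexes and members in these counts is uncertain, because the share of reads kept in the sorted cells differed so much between them.

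The most abundant members by complex in the choroid plexus counts, as means over the 14 libraries, were as follows. Complex V was led by Atp5d (1203 CPM), the delta subunit of the central stalk, and Atp5a1 (1054 CPM), the alpha subunit of the catalytic head. Complex IV was led by Cox6a1 (786 CPM) and Cox8a (739 CPM), the widely expressed forms of small subunits. Complex III was led by Uqcrh (628 CPM), the hinge protein next to cytochrome c1, and Uqcr10 (557 CPM), a small subunit. Complex II was led by Sdhc (646 CPM), a membrane anchor, and Sdha (478 CPM), the flavoprotein. Complex I was led by Ndufs1 (246 CPM), a core subunit of the electron path. Among the sorted-cell reads the leading members of complex I were instead Ndufa13 (356 CPM) and Ndufb9 (267 CPM), which stand low or were not tested in the choroid plexus counts.

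**Figure D2:**
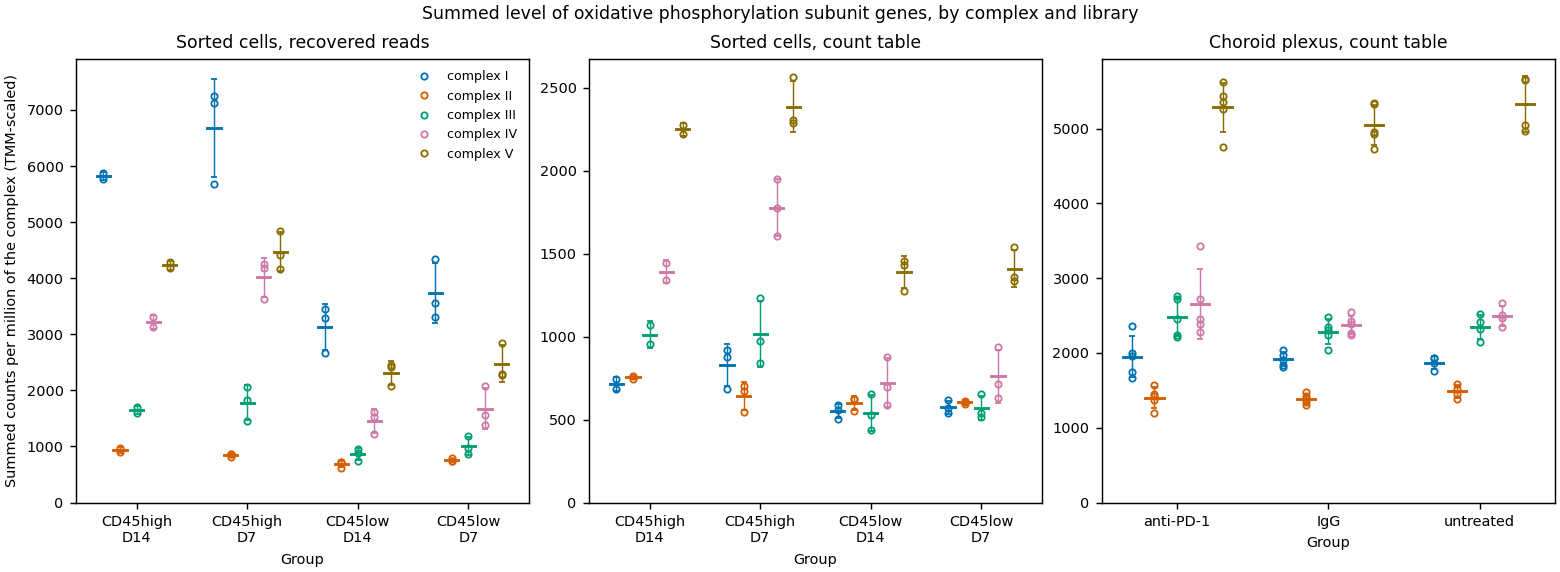
Summed CPM of the members of each complex in every library: sorted cells from recovered reads, sorted cells from the count table, and choroid plexus from the count table, in 3 panels with their own vertical axes from 0. Each circle is 1 library, coloured by complex, and bars mark the mean ± SD of a group. In recovered reads every CD45high library lies above every CD45low library in each complex. For complex II the gap is narrow, 809 CPM against 787 CPM, and as a share of library reads the gates overlap. In counts complex II overlaps between the gates, and in the choroid plexus the groups overlap in each complex.

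Most tissue-restricted isoforms had few or 0 counts in the choroid plexus, where the share of reads kept is not known. In the choroid plexus Cox6a2, the heart and muscle form of subunit 6A, and Cox8c, a testis form, had 0 counts in all 14 libraries, which allows up to 1.63 to 3.22 CPM per library for counting error alone. Cox7b2 had 3 counts in all, Cox4i2, a lung form, had 0 to 2 per library, Cox7a1, a muscle form, had 0 to 5, and Cox8b, a muscle form, had 0 to 4. Cox6b2, known from testis, was the exception with 18 to 61 counts per library. In the sorted cells Cox4i2, Cox7b2 and Cox8c had 0 recovered reads in all 11 libraries. Summed over these libraries, Cox6a2 had 124 recovered reads, Cox6b2 89, Cox7a1 26 and Cox8b 17. The sorted-cell count table held 0 of the reads of Cox7a1 and of Cox8b.

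The comparison of anti-PD-1 with IgG asked what the antibody itself changed in the choroid plexus. No member was called: edgeR's quasi-likelihood test, with Benjamini-Hochberg adjustment over all 9513 genes tested, called 0 of the 72 members tested either higher or lower, against 0% of all genes in each direction. DESeq2 also called 0 members. At an unadjusted p under 0.05, 2 members were higher and 1 was lower, or 3 of 72, against 4.65% of all genes in either direction. The median log2 fold change was 0.05, and 45 of 72 estimates lay above 0, against 50% of all genes. The 12 members that were not tested, for low counts, were Atp5k, Cox4i2, Cox6a2, Cox7a1, Cox7b2, Cox8b, Cox8c, Ndufa13, Ndufa4l2, Ndufa5, Ndufa9 and Ndufb4.

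By complex, 11 of the 12 tested complex IV genes had estimates above 0 (median 0.13), with 11 of 16 for complex V (median 0.08) and 16 of 32 for complex I (median -0.01). Atp5f1, the b subunit of the peripheral stalk, had the lowest p, with a log2 fold change of 0.28 ± 0.11 (SE). It was at 460, 411, 388, 365 and 373 CPM in anti-PD-1 libraries, against 358, 447, 317, 246 and 295 CPM in IgG libraries. All anti-PD-1 libraries lay above 4 of the 5 IgG libraries, but the groups overlapped. Ndufa4 had 0.42 ± 0.19, with 75.9, 83.9, 57.5, 77.9 and 92.2 CPM in anti-PD-1 libraries against 66.3, 74.6, 51.2, 52.4 and 48.1 CPM in IgG libraries. Its groups overlapped as well. Ndufc2, an accessory subunit of complex I, had -0.39 ± 0.17, with 87.2, 90.9, 84.8, 85.0 and 119 CPM against 218, 94.2, 108, 111 and 93.9 CPM in IgG libraries. A single IgG library at 218 CPM stood far above the rest, and the edgeR adjusted p was 1.00 for each of these 3 genes.

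The untreated libraries gave a second reference, which shares the anti-PD-1 libraries with the comparison above and the IgG libraries with the one below. For anti-PD-1 against untreated, edgeR and DESeq2 each called 0 members, beside 0% of genes in each direction by edgeR. The unadjusted p was under 0.05 for 4 higher members and 2 lower, against 3.87% of genes. The median was 0.03, and 41 of 72 estimates were above 0, against 50.3% of genes. The 3 members of lowest p were Atp5f1 (0.32), Atp5e (0.28), the epsilon subunit of the central stalk, and Ndufa4 (0.46), each with an edgeR adjusted p of 0.998. Atp5e was at 342, 322, 251, 286 and 359 CPM in anti-PD-1 libraries, against 251, 262, 272 and 249 CPM in untreated libraries. The groups overlapped through 1 anti-PD-1 library at the untreated level. Ndufa4 was at 52.6, 44.3, 88.8 and 36.6 CPM in untreated libraries, and the F library alone, at 88.8 CPM, was higher than 4 of the 5 anti-PD-1 libraries.

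For IgG against untreated, edgeR and DESeq2 again called 0 members, beside 0% of genes in each direction by edgeR, and at an unadjusted p under 0.05 there was 1 member higher and 1 lower, against 4.95% of genes. The median was -0.03, with 34 of 72 estimates above 0 against 50.6% of genes, and 3 of 12 complex IV genes above 0. Ndufc2 had 0.52 ± 0.19 and Ndufc1, also an accessory subunit of complex I, -0.53 ± 0.22, with an edgeR adjusted p of 0.990 for each. Ndufc1 was at 24.2, 17.7, 29.4, 21.3 and 24.0 CPM in IgG libraries against 35.4, 37.8, 26.1 and 30.3 CPM in untreated libraries. The lowest untreated library was below the highest IgG library, so the groups overlapped. Sdhc had -0.21, with 563, 563, 562, 609 and 759 CPM in IgG libraries against 814, 626, 683 and 719 CPM in untreated libraries. Only the IgG library at 759 CPM reached the untreated range.

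**Figure D3:**
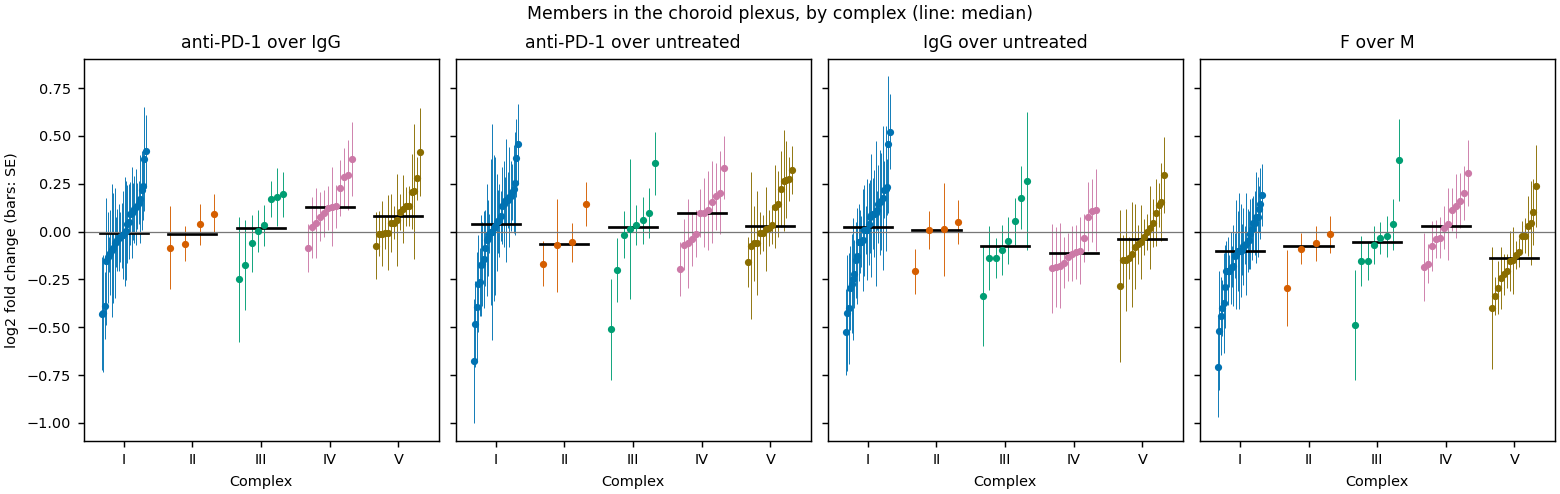
Log2 fold changes of the 72 tested members in the choroid plexus, by complex, in 4 panels for anti-PD-1 over IgG, anti-PD-1 over untreated, IgG over untreated and F over M. Each point is 1 member with a bar of 1 SE and black lines mark the median of a complex; the points lie on both sides of 0 in every panel, and edgeR called 0 members in each.

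The letter in the titles was a covariate in these fits and was also compared itself. The titles close on a number whose meaning is not given in the labels, which was 14 in 6 of 7 M libraries and in 0 of 7 F libraries (6, 7, 8 or 10), so a difference by letter and one by number cannot be told apart. For F over M, edgeR and DESeq2 called 0 members, beside 0.158% of genes higher and 0.0946% lower by edgeR. The unadjusted p was under 0.05 for 0 members higher and 8 lower, against 4.56% and 4.19% of genes. The median was -0.08, with 21 of 72 estimates above 0 against 49.4% of genes, and all 8 lower members belonged to complexes I and V, with 4 each. Atp5f1 had -0.34 ± 0.10 (edgeR adjusted p = 0.209), Ndufv3, an accessory subunit of the NADH-oxidising arm, -0.71, and Ndufa6, an accessory subunit, -0.40. Within M libraries alone (2 anti-PD-1 and 2 IgG) the median for anti-PD-1 over IgG was 0.07 with 48 of 72 above 0. Within F libraries (3 anti-PD-1 and 3 IgG) it was 0.07 with 45 of 72. The shares of all genes above 0 in these fits are not given here. The F difference minus the M difference was called for 0 members by edgeR, beside 0% of genes in each direction and 3.29% of genes at an unadjusted p under 0.05, and 1 member reached that unadjusted p: Ndufa11, an accessory subunit of complex I (1.96 ± 0.62, adjusted p = 0.999).

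In the sorted cells the members stood higher in the CD45high gate. In recovered reads they summed to 15646 and 16071 CPM in CD45high D14 libraries and 15718, 18500 and 19209 CPM in CD45high D7 libraries, against 8817, 7324 and 9193 CPM in CD45low D14 libraries and 9146, 8575 and 11199 CPM in CD45low D7 libraries. All CD45high libraries lay above all CD45low libraries. As a share of a library's reads the members made 1.33% to 1.66% in the CD45high gate and 0.83% to 1.12% in the CD45low gate. In bulk samples, fewer cells of a type and less RNA per cell cannot be told apart.

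Averaged over D7 and D14, edgeR called 27 of the 51 members tested in the count table higher in the CD45high gate and 0 lower, against 26.8% and 26.4% of all genes. In recovered reads it called 58 of 78 higher and 0 lower, against 28% and 27.7% of all genes. DESeq2 called 27 and 57 members higher, and 0 lower in either source. The shares of all genes that DESeq2 called are not given here, for this or any other comparison. By unadjusted p under 0.05 there were 30 higher and 1 lower in counts, against 58.2% of genes in either direction, and 59 higher and 2 lower in reads, against 60.5%. The lower members were Atp5s in both sources and Cox6a2 in reads. Estimates lay above 0 for 47 of 51 members in counts and 69 of 78 in reads, against 46.5% and 46.7% of genes. The 6 members not tested in reads were Cox4i2, Cox7a1, Cox7b2, Cox8b, Cox8c and Ndufa4l2. The median log2 fold change was 0.73 in counts and 0.89 in reads, and that of all genes was -0.08 in both. The 27 members called in counts were all called in reads as well. Of the other 31 called in reads, 17 were not tested in counts and 14 were tested without being called. Without overlap between any library of the gates, 23 of 51 members were higher in counts, against 18.9% of genes, and 43 of 78 in reads, against 20.1%, and 0 were lower, against 15.7% and 16.5%. Some members passed the filter on low counts only through the CD45high gate, where they were higher. Among them were Ndufa1, Ndufa6, Ndufb6, Ndufb9 and Atp5l in counts and Cox6b2 in reads. The numbers of members above include them and so depend in part on the filter.

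**Figure D4:**
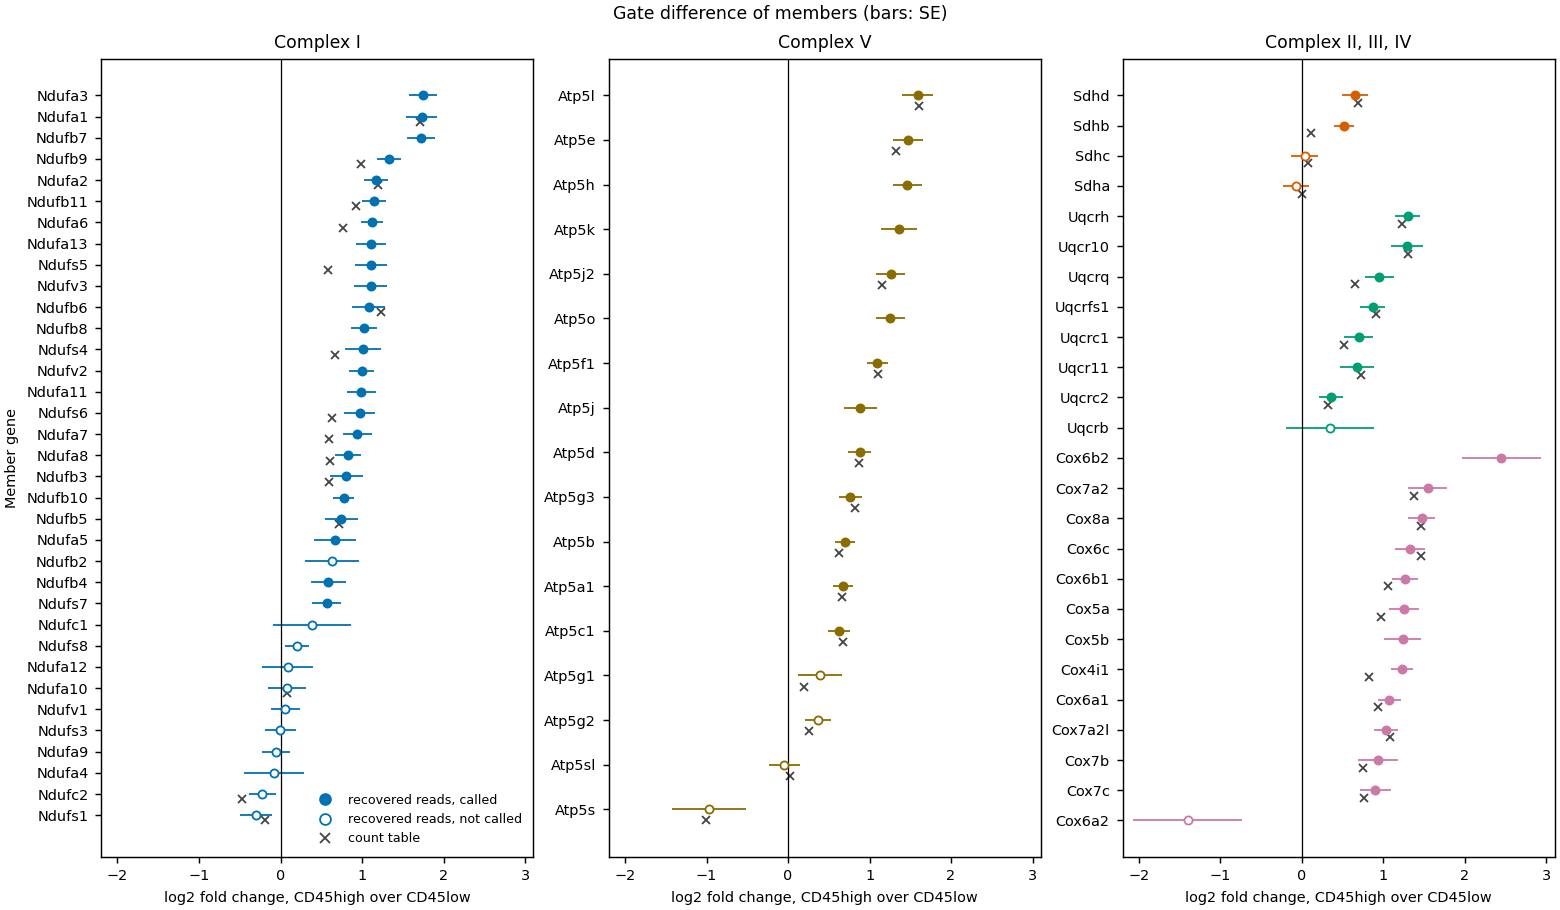
Log2 fold change of the tested members reported here (77 of 78), CD45high over CD45low and averaged over D7 and D14, in 3 panels for complex I, complex V, and complexes II to IV. Circles are recovered reads with bars of 1 SE, filled where edgeR called the member, and crosses are the count table; 58 of 78 members were called higher and 0 lower in reads, and complex II has the lowest median.

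Several other gene groups differed between the gates, and their part in the result was not tested. Summed CPM in recovered reads were 21070 to 40408 in CD45high libraries against 895 to 10580 in CD45low libraries for 10 neutrophil genes, and 5616 to 6746 against 75.8 to 296 for 9 monocyte genes. They were 1029 to 5014 against 9550 to 14117 for microglial genes, and 993 to 1824 against 55.6 to 137 for 8 cell cycle genes. No gene of these lists was at 0 throughout a group. The CD45low library with most neutrophil transcripts, D7 replicate 3 at 10580 CPM, also had the highest member sum of its gate, 11199 CPM. Without it edgeR called 60 members higher in reads and 27 in counts. The shares of all genes called in those fits are not given here.

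Complex I has core and accessory subunits, and members of both classes were called higher in the CD45high gate. The 7 core subunits, which carry the flavin, the iron-sulphur clusters and the quinone site, had a median log2 fold change of 0.20 in recovered reads (range -0.30 to 1.00), and 2 of 7 were called higher. The 28 accessory subunits, which surround and stabilise the core, had a median of 0.98 (-0.22 to 1.74), and 22 of 28 were called. Only 2 core subunits were tested in counts, with 0 called and a median of 0.00, and 15 accessory subunits, with 5 called and a median of 0.67. The ranges of the classes overlapped, and the difference between them was not tested.

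Ndufa3, an accessory subunit of the membrane arm, had the lowest p of all members, 1.74 ± 0.17 in recovered reads (edgeR adjusted p = 7.32e-08). It was at 282 and 278 CPM in CD45high D14 and 313, 314 and 344 CPM in CD45high D7 libraries, against 90.3, 68.3 and 75.5 CPM in CD45low D14 and 86.1, 76.5 and 155 CPM in CD45low D7 libraries. Every CD45high library was above every CD45low library, of which the highest was the one with most neutrophil transcripts. Ndufb7, an accessory subunit on the side of the intermembrane space, had 1.72 ± 0.17, with 384 and 407 CPM in CD45high D14 and 331, 520 and 463 CPM in CD45high D7 libraries. Its CD45low libraries had 127, 96.3 and 105 CPM at D14 and 115, 120 and 210 CPM at D7, again without overlap. Neither gene could be tested in counts.

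Ndufa1, a small accessory subunit needed for assembly in humans, had 1.73 ± 0.19 in reads and 1.71 ± 0.31 in counts, called in both. Ndufb9 had 1.33 ± 0.15 in reads and 0.98 ± 0.40 in counts, and Ndufa6 1.12 ± 0.13 in reads. In counts, Ndufa1 and Ndufb9 passed the filter on low counts only through the CD45high gate, where they were higher. Of the core, Ndufv2, a flavoprotein arm subunit with an iron-sulphur cluster, was called in reads at 1.00 ± 0.15, and Ndufs7, which holds the last cluster before ubiquinone, at 0.57 ± 0.18. Among core subunits that were not called, Ndufs8 had 0.20, Ndufv1 0.06, Ndufs3 0.00 and Ndufs1 -0.30 in reads. Ndufs1, the large subunit of the cluster-bearing arm, was at 58.7 and 63.8 CPM in CD45high D14 and 46.9, 57.3 and 62.7 CPM in CD45high D7 libraries, against 73.5, 87.7 and 63.4 CPM in CD45low D14 and 87.6, 68.4 and 49.8 CPM in CD45low D7 libraries. Most CD45high libraries were below most CD45low libraries, with overlap. Ndufa4 had -0.08 ± 0.37 in reads.

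Complex II, the part of the chain that is also an enzyme of the citric acid cycle, had the lowest median of the 5 complexes. Its 4 genes had a median of 0.28 in recovered reads and 0.10 in counts. Sdha had -0.07 ± 0.16 in reads and 0.00 ± 0.17 in counts, and was at 199 and 205 CPM of reads in CD45high D14 and 106, 159 and 211 CPM in CD45high D7 libraries, against 173, 206 and 196 CPM in CD45low D14 and 204, 196 and 158 CPM in CD45low D7 libraries. The gates lay over each other. Sdhd, a membrane anchor, was called in both sources, with 0.65 ± 0.16 in reads and 0.69 ± 0.16 in counts. It was at 195 and 138 CPM in CD45high D14 and 128, 170 and 138 CPM in CD45high D7 libraries, against 101, 82.7 and 99.7 CPM in CD45low D14 and 120, 97.1 and 95.6 CPM in CD45low D7 libraries. The lowest CD45high library was above the highest CD45low library. Sdhb, the iron-sulphur subunit, was called in reads (0.52 ± 0.13, edgeR adjusted p = 0.00192) but not in counts (0.12 ± 0.29, edgeR adjusted p = 0.758), and the count table held 236 of its 3177 reads. Sdhc had 0.04 in reads and 0.08 in counts and was not called.

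In complex III, 7 of 8 genes were called in reads (median 0.78) and 4 of 7 in counts (median 0.73). Uqcrh had 1.30 ± 0.15 in reads and 1.23 ± 0.19 in counts. It was at 360 and 337 CPM of reads in CD45high D14 and 341, 422 and 381 CPM in CD45high D7 libraries, against 127, 99.2 and 153 CPM in CD45low D14 and 142, 164 and 219 CPM in CD45low D7 libraries, with no overlap. Uqcr10 had 1.29 in reads and 1.31 in counts, and Uqcrfs1, the Rieske iron-sulphur protein, 0.87 in reads and 0.91 in counts. The core proteins Uqcrc1 and Uqcrc2 had 0.70 and 0.35 in reads, both called there and neither called in counts. Uqcrb, a small subunit at 2.47 to 36.1 CPM of reads, was not called in reads (0.35 ± 0.54).

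Complex IV had the highest median, 1.24 in reads with 12 of 13 genes called and 1.02 in counts with 8 of 10. Cox8a had 1.47 ± 0.16 in reads and 1.47 ± 0.17 in counts (edgeR adjusted p = 4.37e-07 in reads and 5.84e-07 in counts), and the lowest p of any member in counts. Its reads gave 396 and 427 CPM in CD45high D14 and 526, 573 and 553 CPM in CD45high D7 libraries, against 180, 114 and 153 CPM in CD45low D14 and 174, 149 and 279 CPM in CD45low D7 libraries. No CD45high library came as low as any CD45low library. Cox4i1 had 1.23 ± 0.14 in reads and 0.82 ± 0.22 in counts. Its reads gave 840 and 878 CPM in CD45high D14 and 1009, 1014 and 1129 CPM in CD45high D7 libraries, against 383, 331 and 406 CPM in CD45low D14 and 391, 377 and 556 CPM in CD45low D7 libraries. The gates did not overlap, and the highest CD45low library was again D7 replicate 3. Cox6a1 had 1.07 in reads and 0.93 in counts, Cox6b1 1.27 and 1.06, Cox7a2 1.54 and 1.37, Cox6c 1.33 and 1.47, and Cox5a 1.25 and 0.97, all called in both sources. Cox7b, a small subunit, had 0.93 in reads, called, and 0.75 in counts, not called.

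The isoforms of complex IV did not all go the same way. Cox6b2 was called higher in reads, 2.45 ± 0.48 (edgeR adjusted p = 2.76e-04), at a low level: 18.7 and 15.2 CPM in CD45high D14 and 19.7, 17.0 and 32.2 CPM in CD45high D7 libraries, against 0.931, 2.88 and 1.42 CPM in CD45low D14 and 3.13, 6.62 and 12.1 CPM in CD45low D7 libraries. The gates did not overlap in CPM, and the CD45low library nearest to the CD45high gate was D7 replicate 3. The reads were few, 9 in that library against 14 and 10 in CD45high D14 and 8, 8 and 20 in CD45high D7 libraries. Only CD45high libraries reached the level of the filter on low counts, so Cox6b2 was tested only through the gate where it was high. In counts it was not tested. Cox6a2 was not called (-1.40 ± 0.67), with 13.3 and 0 CPM in CD45high D14 and 7.40, 4.24 and 0 CPM in CD45high D7 libraries, against 34.4, 11.5 and 20.6 CPM in CD45low D14 and 11.0, 6.62 and 5.39 CPM in CD45low D7 libraries. Cox7a2l was called in both sources, 1.03 ± 0.15 in reads and 1.08 ± 0.15 in counts. Its reads were nearly all in the count table, 2039 of 2059.

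In complex V, 13 of 17 genes were called in reads (median 0.88) and 9 of 13 in counts (median 0.67). The 5 genes of the catalytic head and central stalk were all called in both sources, with medians of 0.70 in reads and 0.67 in counts. Atp5b, the catalytic beta subunit, had 0.70 ± 0.13 in reads, with 693 and 702 CPM in CD45high D14 and 664, 713 and 774 CPM in CD45high D7 libraries, against 453, 399 and 447 CPM in CD45low D14 and 408, 419 and 495 CPM in CD45low D7 libraries. The lowest CD45high library lay above the highest CD45low library. Atp5e had 1.48 ± 0.18 in reads, and Atp5a1 and Atp5d 0.67 and 0.88.

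The 7 peripheral stalk and membrane genes were all called in reads, with a median of 1.26, as were the 3 of them tested in counts. Atp5f1 had 1.09 ± 0.13 in reads and 1.10 ± 0.15 in counts. Its reads gave 223 and 245 CPM in CD45high D14 and 262, 250 and 261 CPM in CD45high D7 libraries, against 108, 95.6 and 112 CPM in CD45low D14 and 132, 123 and 120 CPM in CD45low D7 libraries. Its gates were separated by a wide gap. Atp5l, a membrane subunit, had 1.59 ± 0.19 and Atp5h 1.46 ± 0.18 in reads. The c-ring, the rotor that protons turn, is encoded by 3 genes (Atp5g1, Atp5g2, Atp5g3) for the same mature protein, and of these Atp5g3 was called in both sources (0.77 in reads, 0.82 in counts), while Atp5g1 (0.39 in reads) and Atp5g2 (0.37 in reads) were not. Atp5s had -0.97 ± 0.45 and Atp5sl -0.05 ± 0.19 in reads, neither called.

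Genes that build or accompany the complexes are set here beside all genes, of which edgeR called 28% higher and 27.7% lower in reads, and 26.8% and 26.4% in counts. Their difference from the subunits was not tested. Of 6 tested subunit and carrier genes outside the naming rule, edgeR called 2 higher in reads, 2010107E04Rik (1.68 ± 0.39) and Cycs (0.74 ± 0.26), cytochrome c. Of 14 complex I assembly factors 0 were higher and 4 lower in reads, with a median of -0.49, and of 8 tested in counts 0 were higher and 3 lower. Among them Ndufaf6 had -2.45 ± 0.50 and Ndufaf4 -1.51 ± 0.34 in reads. Of 19 complex IV assembly factors 4 were higher and 4 lower in reads, with Pet100 at 2.14 ± 0.20 and Cox11, a copper chaperone, at -2.27 ± 0.22. The 6 factors of complexes II and III had 2 higher and 0 lower, Uqcc2 (0.68) and Sdhaf2 (0.48), and the 3 of complex V had 0 called, with 0 at an unadjusted p under 0.05 as well. The subunits encoded by mitochondrial DNA were not analysed here. In the choroid plexus edgeR called 0 genes of these lists in any comparison.

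At D7 alone, edgeR called 25 of 51 members higher and 0 lower in counts, against 22.3% and 20.5% of genes, and 51 of 78 higher and 1 lower in reads, against 23.6% and 21.1%. By unadjusted p under 0.05, 32 were higher and 1 lower in counts and 54 higher and 1 lower in reads, against 49.3% and 51.6% of genes in either direction. The lower member in reads was Atp5s (-1.62 ± 0.64, adjusted p = 0.0459), at 12.3, 0 and 11.3 CPM in CD45high D7 libraries against 36.0, 19.9 and 17.5 CPM in CD45low D7 libraries. This call ended with RLE size factors (-1.60), with the opening number of the titles as a replicate block (-1.68) and without CD45low D7 replicate 1 (-1.23), CD45low D7 replicate 2 (-1.77) or CD45high D7 replicate 2 (-1.11). At D14 alone, 17 members were higher and 0 lower in counts, against 20.5% and 15% of genes, and 52 higher and 0 lower in reads, against 22.1% and 16.3%. DESeq2 called 16 higher in counts and 51 in reads at D14, and 0 lower in either, with its shares of all genes not given here. By unadjusted p under 0.05, edgeR gave 21 higher in counts and 56 in reads, and 0 lower, against 44% and 46.4% of genes in either direction. By complex, edgeR in reads called 21 of complex I, 2 of complex II, 5 of complex III, 11 of complex IV and 13 of complex V higher at D14, against 21, 0, 5, 12 and 13 at D7. Both D groups shared 16 called members in counts, which is 64.0% of the D7 and 94.1% of the D14 calls, and 46 in reads, 90.2% and 88.5%. With 2 CD45high D14 libraries, the D14 count rests on few samples: without replicate 2 it was 7 in counts and 40 in reads, and without replicate 1 it was 11 in counts and 38 in reads. It was also 11 in counts without CD45low D14 replicate 2. The shares of all genes called in these reduced fits are not given here, so a loss particular to the members cannot be read from them. With upper quartile scaling, the calls over all genes at D14 in reads split into 1985 higher and 2238 lower, against 2292 and 1689 with TMM.

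Within a gate, no member was called between D14 and D7. In the CD45low gate, edgeR and DESeq2 called 0 members in either source, beside 0.0221% of genes higher and 0.0773% lower in counts and 0.0192% and 0.00962% in reads by edgeR. In counts, 0 members had an unadjusted p under 0.05, against 7.34% of genes, and the median was -0.01. In reads, 1 was higher and 9 were lower, against 8.12% of genes in either direction, with a median of -0.22 and 17 of 78 estimates above 0, against 48.5% of genes. Several marker lists moved in the same comparison, and their part was not tested. In reads, 10 neutrophil genes summed to 895 to 1332 CPM in CD45low D14 libraries against 1862 to 10580 CPM in CD45low D7 libraries, the highest being D7 replicate 3. The 12 choroid plexus epithelium genes summed to 1308 to 1886 CPM at D14 against 370 to 734 CPM at D7, with Slc4a5 at 0 in all 3 D7 libraries. The 7 neuron genes summed to 4.27 to 17.3 CPM at D14 against 31.3 to 68.7 CPM at D7, and the 7 fibroblast genes to a median of 27.0 CPM (highest 37.7) against 6.26 CPM (highest 10.3), without overlap. Of the fibroblast genes Dcn, Lum, Col1a1 and Col3a1 were at 0 in both groups. Ndufa5, an accessory subunit of complex I, had the lowest p in reads, 1.35 ± 0.34 (edgeR adjusted p = 0.221). It was at 41.9, 36.7 and 29.2 CPM in CD45low D14 libraries against 11.7, 15.5 and 14.8 CPM in CD45low D7 libraries, without overlap. The next were Ndufs5 (-0.82) and Ndufa7 (-0.66), and in counts Atp5e (0.64, adjusted p = 0.712; -0.16 in reads), Uqcr11 (0.52) and Cox8a (-0.35).

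In the CD45high gate, 0 members were called by edgeR or DESeq2, beside 0.011% of genes higher and 0% lower in counts and 0.0289% and 0.0192% in reads by edgeR. At an unadjusted p under 0.05 there were 0 members in either source, against 10.5% and 10.6% of genes. The medians were -0.20 in counts and -0.16 in reads. The 3 members of lowest p in reads were Ndufb9 (-0.47), Cox6b1 (-0.42) and Cox6a1 (-0.36), and in counts Ndufb9 (-1.15), Cox6a1 (-0.41) and Cox4i1 (-0.58). Cox6a1 in reads was at 465 and 522 CPM in CD45high D14 libraries against 550, 721 and 632 CPM in CD45high D7 libraries. Both D14 libraries were below all 3 D7 libraries. Complex IV in reads summed to 3213 ± 125 CPM in CD45high D14 libraries (SD, n = 2) against 4018 ± 345 CPM in CD45high D7 libraries (n = 3). The summed neutrophil genes were also lower at D14, 21070 and 25941 CPM against 34623 to 40408 CPM at D7. Other marker lists moved in reads as well. T and NK cell genes were higher at D14, 207 to 214 CPM against 88.5 to 190 CPM. Oligodendrocyte genes were lower, 232 to 249 CPM against 380 to 560 CPM, with Mog at 0 at D14. Pericyte and smooth muscle genes were lower, 41.0 to 50.7 CPM against 70.8 to 89.1 CPM, with Rgs5 and Vtn at 0 in both groups. The part of these lists was not tested.

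The gate difference at D14 minus that at D7 was called for 0 members by edgeR and DESeq2 in both sources, beside 0% of genes in each direction by edgeR. In reads 1 member had an unadjusted p under 0.05, Ndufa5 at -1.21, against 5.93% of genes, and in counts 0, against 5.98%. Ndufa5 was at 41.4 and 33.4 CPM in CD45high D14 and 24.7, 31.8 and 43.4 CPM in CD45high D7 libraries, so that its CD45low D7 libraries were the lowest of the 4 groups.

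Members resembled each other more across the sorted libraries than across the choroid plexus. The median Spearman correlation between pairs of members was 0.67 over the 11 sorted libraries in reads (78 members) and 0.55 in counts (51), and 0.13 over the 14 choroid plexus libraries (72). Pairs share their libraries, and the sorted libraries fall into 2 gates that differ in many genes. In reads the members least like the rest, by mean correlation, were Ndufs1 (-0.48), Cox6a2 (-0.45) and Atp5s (-0.38). The genes outside the set most like its members in reads were Dbi (0.68), Plac8, Fstl3, Rps19-ps3 and C330021F23Rik, in counts Plec (0.63), Rfc2, Hnrnpul2, Fstl3 and Pxn, and in the choroid plexus Ap3s1 (0.31), Ppp1cb, Fubp1, Cadm4 and Rpl22. The gate difference of a member was smaller for longer transcripts, with a Spearman correlation across members of -0.52 in reads (n = 78) and -0.64 in counts (n = 51), against -0.17 and -0.15 across all genes. Across the 14 choroid plexus libraries the coefficient of variation of a member's CPM had a median of 21.3%, with 24.8% for complex I, 11.2% for complex II, 16.7% for complex III, 17.8% for complex IV and 18.8% for complex V. These values include counting error, which is larger for members with few counts. Ndufs8, of complex I, had 8 to 24 counts per library and Sdhc, of complex II, 535 to 1359. The complexes can therefore not be ranked by variation from these values.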

How the data were processed

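The submitters' processing notes name Bowtie2, HOMER and the mouse build mm9, with versions, annotation and any treatment of duplicate or multiply placed reads not given in the sources used here. The authors deposited counts per gene as whole numbers without normalization, and a signal per gene scaled per library, from which whole reads were recovered for 100% of values within 0.05 reads. 

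Differences were fitted in edgeR 4.0.16 (R 4.3.3) as quasi-likelihood models with TMM factors, after filterByExpr, and p-values were adjusted over every tested gene by Benjamini-Hochberg with calls at 0.05. The 14 choroid plexus libraries entered 1 fit with the title letter as covariate (9513 genes, 72 members), and the 11 sorted libraries another (9058 genes, 51 members in counts; 10390 genes, 78 members in recovered reads, an added alternative). The SE of a log2 fold change was derived from its F statistic. CPM use TMM factors. DESeq2 1.42.0, RLE and upper quartile factors, no filter, left-out libraries, single letters and a replicate block were alternatives. Scripts were tested on simulated data. Values of 1 member are not reported here. No genome of the files' build was at hand, so promoters come from GRCm38 by symbol, with 69 of 84 members having a promoter entry. Transcript and 3′ untranslated region lengths come from a GENCODE annotation of GRCm38, matched through the RefSeq identifier of each gene in the sorted-cell counts. Intervals and floors cover counting error only.

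The members and gene lists were chosen with earlier results of these data known. Named members are the 2 highest of each complex, up to 10 called members of lowest p per comparison (otherwise the 3 of lowest p), isoform and Sdh genes, matched rows that are no structural subunit, flagged members, up to 3 called genes per pathway list and the 5 most similar outside genes. Other members named as examples of the difference between tables or of a class of subunits were chosen after their values were seen.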

Additional observations from a re-analysis of the deposited data

Results flagged for a closer look

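Values in groups of 4 or more libraries were checked for 1 library far from the rest, as a gap that is large beside the range of its group. Of 69 pairs of a group and a quantity, 6 stood out so, where chance gives about 1 in 20. All were in the choroid plexus counts. In the anti-PD-1 group, Cox6a1, a widely expressed subunit of complex IV, was at 1544 CPM in replicate 5 against 640 to 827 CPM in the other libraries, and Ndufc2, an accessory subunit of complex I, was at 119 CPM in the same library against 84.8 to 90.9 CPM. Atp5a1, the alpha subunit of ATP synthase, was at 924 CPM in anti-PD-1 replicate 3 against 1056 to 1105 CPM. In the IgG group, Ndufc2 was at 218 CPM in replicate 1 against 93.9 to 111 CPM, and Sdhc, an anchor of complex II, was at 759 CPM in replicate 5 against 562 to 609 CPM. In the untreated group, Uqcrh, the hinge protein of complex III, was at 318 CPM in replicate 1 against 621 to 652 CPM.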

How the results depend on the processing

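In the gate comparisons, higher members outnumbered lower ones under every alternative run, and in the choroid plexus 0 members were called under each. The source of the reads moved the counts most: against the count table, the reads recovered from the scaled table gave 58 higher members in place of 27 for the mean of D7 and D14, 51 in place of 25 at D7 and 52 in place of 17 at D14, with 1 lower in place of 0 at D7. At D7 in counts, upper quartile factors and no filter on low counts also gave 1 lower member each. In recovered reads, upper quartile factors gave 3 lower members and no filter gave 2, in place of 0, for the mean of D7 and D14; at D7 the lower count was 2 with upper quartile factors and 0 with RLE factors or a replicate block, in place of 1. Leaving out 1 library gave 25 to 28 higher members for the mean of D7 and D14 in counts, 17 to 26 at D7 and 7 to 17 at D14, and 55 to 60, 42 to 53 and 38 to 52 in reads. The lower members then ranged from 0 to 1 at D7 in either source and at D14 in reads, and from 0 to 2 for the mean of D7 and D14 in reads. The shares of all genes called with a library left out or with a replicate block are not given here. Upper quartile factors moved the median of all genes to -0.21 in counts and to -0.25 in reads. These were shifts of -0.13 and -0.17 from TMM. The median of members minus that of all genes stayed at 0.81 in counts and 0.97 in reads. Single members that changed sign were Ndufa4 in F libraries alone (anti-PD-1 over untreated, -0.23, 1 untreated library), and Atp5e (-0.16) and Uqcr11 (-0.015) with recovered reads (D14 over D7, CD45low). The causes were not tested, except that fewer members are tested in the count table.

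Deviations from the group mean in libraries with the same number had correlations of -0.04 to 0.16 in the choroid plexus. In the sorted cells these were 0.01 to 0.07. Libraries with different numbers were not compared, so whether the numbers pair the samples cannot be told. With the number as a replicate block, the choroid plexus still gave 0 called members, and the sorted cells gave 26, 23 and 14 higher members in counts for the mean, D7 and D14, and 58, 52 and 52 in reads. Depth limits the low members: a listed 0 allows up to 3.08 to 8.74 CPM in a sorted library's counts. The recovered-reads alternatives and the F minus M difference were chosen after seeing the data.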

Other observations

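Glycolysis genes were higher in the CD45high gate for the most part. Of 18 tested genes edgeR called 13 higher and 2 lower there in recovered reads, with a median log2 fold change of 1.62, and 13 higher and 2 lower in counts, with a median of 1.66. In reads Slc16a3, which exports lactate, had 2.48 ± 0.16, Gpi1, the glucose phosphate isomerase, 2.32 ± 0.16 and Pkm, the pyruvate kinase, 2.25 ± 0.16. Ldhb, a lactate dehydrogenase subunit, was lower (-2.56 ± 0.20), and so was Hk2, a hexokinase (-0.69 ± 0.16); these 2 were named after their values were seen. Across all genes, 28% were called higher and 27.7% lower in reads.

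Other mitochondrial groups had medians of -0.26 to 0.32 in reads, where that of all genes was -0.08. Of 17 genes of pyruvate dehydrogenase and the citric acid cycle 4 were higher and 2 lower, with a median of 0.10, and Mdh2, the mitochondrial malate dehydrogenase, had 1.18 ± 0.13, Pdha1 1.34 ± 0.17 and Cs, the citrate synthase, 0.69 ± 0.14. Of 14 fatty acid oxidation genes 3 were higher and 3 lower (median -0.11), with Cpt1a, which commits fatty acids to the mitochondrion, at 1.64 ± 0.18, Etfb, an electron carrier, at 0.99 ± 0.18 and Acads, a dehydrogenase of short-chain acids, at -1.05 ± 0.22. Of 75 mitochondrial ribosomal proteins 15 were higher and 9 lower (median 0.07), led by Mrpl33 (2.89 ± 0.18), Mrps21 and Mrpl30. Of 22 import genes 8 were higher and 4 lower (median 0.06), led by Tomm22 (1.46), of the outer membrane translocase, Timm10b and Timm8b. Of 12 carriers and porins 4 were higher and 0 lower (median 0.32), among them Ucp2 (1.27), an inner membrane carrier, Slc25a12 (1.44) and Slc25a20 (1.08). At an unadjusted p under 0.05, 5 of those 12 passed in either direction. Of 12 regulators of mitochondrial biogenesis 1 was higher and 2 lower (median -0.26): Yy1 had 0.45, Tfam, a packaging factor of mitochondrial DNA, -0.50 and Ppard, a nuclear receptor, -0.95. These lists differ from one another in size and were not tested as sets, and the marker genes given beside the gate results differ between the same libraries.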
